A study of Mus musculus with 18 samples.

Results

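The genes described here are the SLAM family receptors, the related adhesion receptor CD2 and the adaptors of the SAP family, in natural killer T (NKT) cells of the mouse thymus. They were taken by symbol from a table of RNA read counts for 23337 genes and number 10: Slamf1, Slamf6, Slamf7, Cd244, Ly9, Cd84, Cd48, Cd2, Sh2d1a and Sh2d1b1. All 10 have a row in the table, 9 had at least 1 read, and those 9 passed the filter on low counts and were tested. Invariant NKT cells, T cells that recognize lipid antigens on CD1d, were sorted from thymus as NKT1, NKT2 and NKT17 cells, the subsets known for interferon-gamma, IL-4 and IL-17. The mice were wild-type (WT) or SKG, both BALB/c, with 3 libraries in each of the 6 groups. SKG mice carry a missense mutation in the SH2 region of ZAP-70, the kinase that relays T cell receptor signals, and the WT controls came from the same intercross, bred separately. NKT1 cells were gated as CD49a+ and ICOS-low, NKT2 as CD49a-, ICOS-high, CD4-high and Syndecan-1-, and NKT17 as CD49a-, ICOS-high and Syndecan-1+. None of the 10 genes was used in the gates. No treatment was given, and the age of the mice and any pooling of thymi are not given in the sources used here.

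SLAM family receptors are immunoglobulin-like proteins of blood cells, and most of them bind another copy of themselves on a neighboring cell. CD244 instead binds CD48, a lipid-anchored member without a cytoplasmic tail, and mouse CD2 also uses CD48 as its ligand. Tyrosine motifs in the tails recruit the small adaptor SAP, made by Sh2d1a, which brings in the kinase FYN, or the related EAT-2 adaptors, one of which is made by Sh2d1b1. NKT precursors are selected by contact with other cortical thymocytes, and SLAMF1, SLAMF6, SAP and FYN act in that step.

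Total counts ranged from 4391029 to 8895917 a library. Levels are given in CPM, counts scaled to a common library size, on totals adjusted by the TMM method, and 3 counts, the floor used for bounds, correspond to 0.337 to 0.683 CPM on raw totals. T cell markers were high in every library. The sum over 6 NKT17 markers was 2382 to 2483 CPM in NKT17 libraries and at most 14.3 CPM elsewhere, and the sum over 6 NKT1 markers was 3948 to 5607 CPM in NKT1 libraries and at most 424 CPM elsewhere. The sum over 6 NKT2 markers did not separate NKT2 from NKT17 in SKG mice. It was 2284 to 2559 CPM in WT NKT2 and 1517 to 1634 CPM in WT NKT17, but 1693 to 2137 CPM in SKG NKT2 and 1686 to 1823 CPM in SKG NKT17. Tested singly, 3 of the 6 were significantly lower in SKG NKT17 than in SKG NKT2, and 2 in the WT comparison. The products of Sdc1, in the NKT17 list, and of Icos and Cd4, in the NKT2 list, were also used in the gates. The sums of those lists therefore follow in part from the sort. Myeloid and dendritic cell markers summed to at most 14.2 CPM and red cell markers to at most 1.45 CPM in any library. Zap70 itself was read in all groups, and the mutation in it cannot be seen in a table of counts. In bulk libraries such as these, fewer cells of a type and less RNA per cell cannot be told apart.

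The 7 receptor genes other than Cd2 lie side by side on chromosome 1 (NCBIM37, 173489324 to 173879083, a span of 389.8 kb) in the order Cd244, Ly9, Slamf7, Cd48, Slamf1, Cd84 and Slamf6, with no other counted gene between them. Sh2d1b1 lies near them on the same chromosome at 172207507 to 172216900, Cd2 on chromosome 3 at 101079822 to 101091862, and Sh2d1a on chromosome X at 39855630 to 39876874. None overlaps another gene model of the annotation. The cluster is 136.6 Mb from Zap70 on chromosome 1.

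Promoter windows, 250 bases before to 50 bases after the start site, were found in RefSeq (GRCm38.p6, the C57BL/6J reference) for 7 of the 10 genes, and Cd2, Ly9 and Sh2d1a had no entry. The windows of Slamf7 and Cd244 are shown because these genes were read almost only in NKT1 cells, and those of Slamf6 and Cd48 because their levels ran in opposite directions across the subsets. Capitals mark matches to the T-box core TCACACC or the RUNX core TGTGGT, each searched on both strands, as was the GATA motif AGATAA, which was added after the expression values were seen.

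Slamf7 (chr1:171648950-171649249, minus strand): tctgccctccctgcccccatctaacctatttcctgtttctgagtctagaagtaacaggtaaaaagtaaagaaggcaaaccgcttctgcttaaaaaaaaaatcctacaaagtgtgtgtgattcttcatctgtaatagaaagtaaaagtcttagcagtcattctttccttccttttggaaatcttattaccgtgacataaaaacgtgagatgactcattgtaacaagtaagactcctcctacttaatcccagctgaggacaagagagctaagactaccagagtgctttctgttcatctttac

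Cd244 (chr1:171558943-171559242, plus strand): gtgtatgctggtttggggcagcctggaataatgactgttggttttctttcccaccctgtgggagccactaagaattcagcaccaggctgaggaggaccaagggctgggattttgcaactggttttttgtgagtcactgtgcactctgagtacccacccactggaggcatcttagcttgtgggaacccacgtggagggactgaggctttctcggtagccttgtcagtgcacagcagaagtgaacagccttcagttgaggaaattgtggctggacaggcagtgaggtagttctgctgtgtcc

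Slamf6 (chr1:171917212-171917511, plus strand): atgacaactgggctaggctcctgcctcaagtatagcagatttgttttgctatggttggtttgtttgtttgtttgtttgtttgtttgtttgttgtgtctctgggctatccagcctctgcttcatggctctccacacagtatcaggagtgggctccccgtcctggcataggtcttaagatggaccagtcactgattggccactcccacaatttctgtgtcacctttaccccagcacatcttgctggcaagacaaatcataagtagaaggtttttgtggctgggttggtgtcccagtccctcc

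Cd48 (chr1:171681742-171682041, plus strand): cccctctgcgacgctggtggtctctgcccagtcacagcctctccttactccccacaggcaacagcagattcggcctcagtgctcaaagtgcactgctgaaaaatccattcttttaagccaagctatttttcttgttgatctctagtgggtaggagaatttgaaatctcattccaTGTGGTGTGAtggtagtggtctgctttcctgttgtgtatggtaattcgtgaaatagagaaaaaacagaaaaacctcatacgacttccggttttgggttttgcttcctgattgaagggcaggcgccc

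Of these 4 windows, that of Cd48 held a TGTGGT on the strand of the gene, starting at position -76 from the start site, and a TCACACC on the opposite strand, starting at -73, so the matches overlap. The other windows shown held none of the 3 motifs. Among the other matched genes, the Cd84 and Sh2d1b1 windows held 1 TGTGGT each. Of 32851 RefSeq windows of the same length, 3.98% held TCACACC, 16.8% TGTGGT and 11.2% AGATAA on either strand. These matches are letters in a window and show no binding.

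By group mean in WT mice, different genes of the family were highest in each subset, and most were read in every subset. NKT1 cells were the only ones with more than traces of Slamf7 and Cd244 and had the most Cd2, Cd48 and Ly9. NKT2 cells had the most Slamf6 and Sh2d1a, and NKT17 cells the most Cd84 and Slamf1. A gene is called here when its difference had an adjusted p under 0.1 in edgeR's quasi-likelihood test across all genes and was at least 1.5-fold. In WT mice, 7 of the 9 tested genes were called between NKT1 and NKT2, against 27.5% of all tested genes. These 3 comparisons share their libraries and are given side by side. Between NKT1 and NKT17 all 9 tested genes were called, against a background of 24.7%, and between NKT17 and NKT2 5 were, against 20.0%. Slamf7 and Cd244 passed the low-count filter only through NKT1 libraries, so their calls against NKT1 follow from that filter and are a description.

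**Figure D1:**
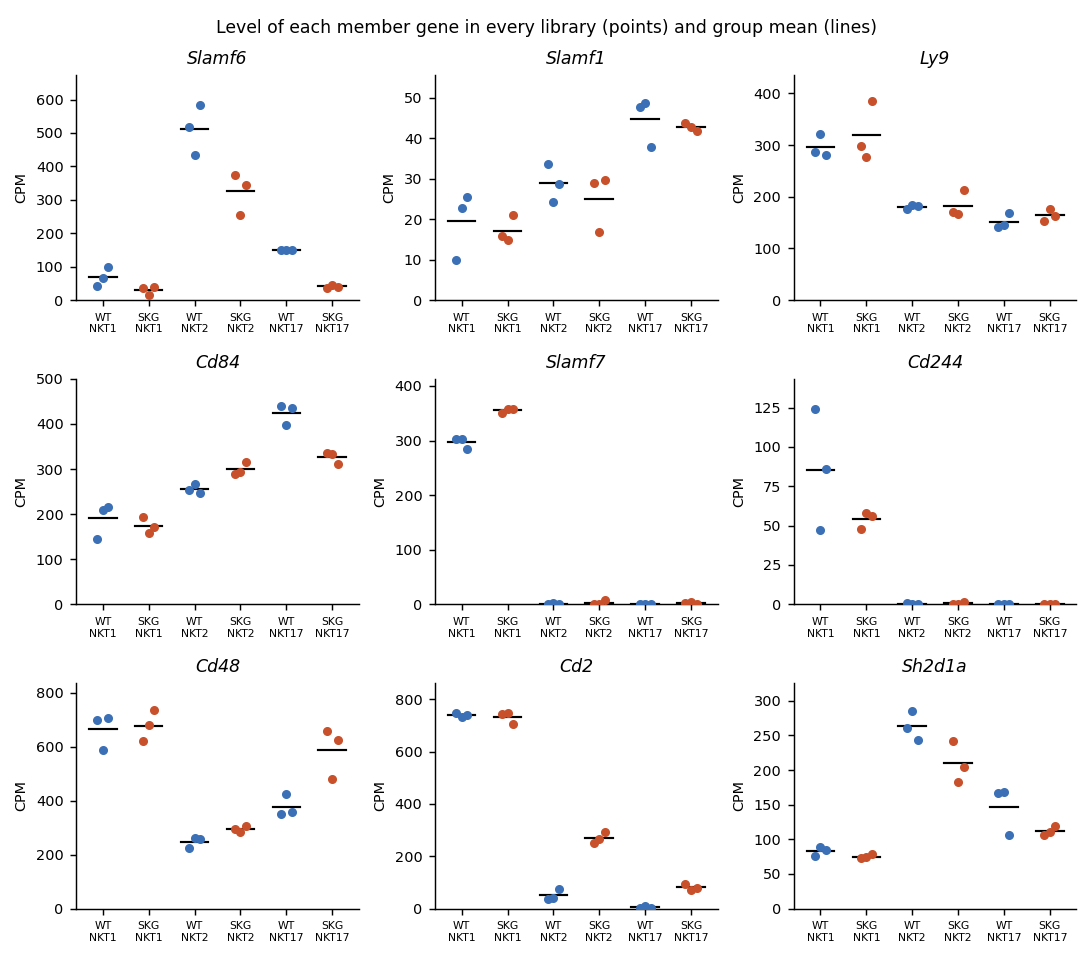
Level of each of the 9 detected genes in CPM (linear axis from 0, own scale in each panel) in the 18 libraries. Points are libraries (blue WT, red SKG) and black lines are group means (n = 3). Slamf7 and Cd244 stand near 0 outside NKT1, Slamf6 is highest in NKT2 and its SKG libraries lie below the WT ones in each subset, and Cd2 is higher in SKG NKT2 and SKG NKT17 than in their WT groups.

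Slamf6, a receptor that binds itself, was read at 41.4, 67.0 and 99.9 CPM in the WT NKT1 libraries, at 519, 434 and 585 CPM in WT NKT2, and at 151 CPM in each WT NKT17 library. The groups did not overlap, with NKT2 on top and NKT1 at the bottom. WT NKT2 exceeded WT NKT1 7.41-fold (log2 difference -2.89 ± 0.33 SE for NKT1 against NKT2, adjusted p = 8.89e-06) and WT NKT17 3.39-fold (adjusted p = 0.000727).

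Slamf1, the founding member, was scarce. It was read at 10.0, 22.7 and 25.5 CPM in WT NKT1, at 33.7, 24.3 and 28.6 CPM in WT NKT2, and at 47.6, 48.7 and 37.7 CPM in WT NKT17. NKT17 libraries stood above all others. The log2 difference of NKT1 against NKT17 was -1.21 ± 0.27 (SE, adjusted p = 0.00143), while that of NKT17 against NKT2, 0.63 ± 0.27, just missed the threshold (adjusted p = 0.1001) and that of NKT1 against NKT2, -0.58 ± 0.27, did not pass it either (adjusted p = 0.111). NKT17 against NKT2 was called in 3 of 15 alternative settings, among them those without WT NKT2 replicate 1 or WT NKT17 replicate 3. NKT1 against NKT2 was called in 7 of 15, among them those without WT NKT1 replicate 2 or 3 or WT NKT2 replicate 2.

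Ly9, a self-binding receptor also called SLAMF3, varied least between groups. Its libraries spanned 281 to 322 CPM in WT NKT1, 176 to 185 CPM in WT NKT2 and 141 to 169 CPM in WT NKT17. The NKT1 libraries were above the rest, by 1.64-fold over NKT2 (adjusted p = 0.000105) and 1.95-fold over NKT17 (adjusted p = 2.17e-06). NKT17 was lower than NKT2 by 0.25 on the log2 scale, which was not called.

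Cd84, a receptor that binds itself and SAP, ran the other way. WT NKT17 libraries held 440.0, 399 and 435 CPM, WT NKT2 253, 267 and 247 CPM, and WT NKT1 145, 209.9 and 217 CPM. The 3 groups did not overlap. NKT17 exceeded NKT1 2.23-fold (adjusted p = 7.84e-08) and NKT2 1.66-fold (adjusted p = 6.65e-05). The log2 difference of NKT1 against NKT2, -0.42 ± 0.12 (SE), had an adjusted p of 0.00891 but was under 1.5-fold.

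Slamf7, known as CRACC on NK cells, was read at 303.8, 303.4 and 284 CPM in WT NKT1 libraries and at 351, 358 and 358 CPM in SKG NKT1. Outside NKT1, 12 libraries held 0 to 53 counts. The highest of these, 8.51 CPM, was SKG NKT2 replicate 3, which also held the most Cd244 counts outside NKT1 (8). The log2 difference of NKT1 against NKT2 was 8.34 ± 0.73 (SE) in WT and 6.65 ± 0.62 in SKG. Without SKG NKT2 replicate 3 the difference of SKG from WT in NKT2 turned from 1.95 to -0.76 (log2), and it was not called with that library either (adjusted p = 0.293). Without SKG NKT2 replicate 2, which had 0 counts, it was called at 2.65.

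Cd244, the receptor 2B4 of NK cells, was read at 124, 47.0 and 85.7 CPM in WT NKT1 and at 47.8, 58.1 and 56.0 CPM in SKG NKT1. The 3 WT NKT17 libraries had 0 counts, and no other library outside NKT1 had more than 8. Against the floor of 3 counts per library, WT NKT1 was at least 158-fold higher than WT NKT2 and at least 169-fold higher than WT NKT17, and SKG NKT1 at least 107-fold higher than SKG NKT17. The log2 difference of SKG NKT1 from SKG NKT2 was 6.40 ± 0.58 (SE). The WT NKT1 libraries were widely spread, with a mean of 85.6 ± 38.6 CPM (SD, n = 3). Replicate 1, with the most Cd244, had the least Slamf1, Slamf6 and Cd84 of the group. NK cell markers, summed over 6 genes, were at 427 to 838 CPM in WT NKT1 and 243 to 310.1 CPM in SKG NKT1, with Klra8 at 0. Most of the sum was Fcer1g, with means of 400 and 194 CPM in these groups, and only 3 of the 6 genes passed the low-count filter. The part of these markers in the Cd244 levels was not tested.

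Cd48, the ligand of CD244 and CD2, was abundant in every group. Its libraries spanned 588 to 706 CPM in WT NKT1, 223 to 261 CPM in WT NKT2 and 350.0 to 425 CPM in WT NKT17, without overlap. NKT1 exceeded NKT2 2.69-fold (adjusted p = 3.53e-09) and NKT17 1.76-fold (adjusted p = 1.01e-05), and NKT17 exceeded NKT2 1.52-fold (adjusted p = 0.000513). The last of these fell below 1.5-fold with upper-quartile scaling and without WT NKT2 replicate 1 or WT NKT17 replicate 2, down to 0.52 on the log2 scale.

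Cd2, an adhesion and costimulatory receptor of T and NK cells, had the widest spread among the subsets after Slamf7 and Cd244. It was read at 746, 732 and 740.2 CPM in WT NKT1, at 36.6, 42.1 and 76.1 CPM in WT NKT2 and at 1.76, 9.56 and 2.88 CPM in WT NKT17. The groups lay far apart. NKT1 exceeded NKT2 14.3-fold (adjusted p = 1.05e-06) and NKT17 156-fold (log2 difference 7.29 ± 0.43 SE, adjusted p = 9.42e-09), and NKT17 was 11.0-fold lower than NKT2 (adjusted p = 2.13e-05).

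Sh2d1a, the gene of SAP, was read at 261, 286 and 244 CPM in WT NKT2, at 167, 168 and 107 CPM in WT NKT17 and at 76.5, 88.2 and 84.5 CPM in WT NKT1. These groups did not overlap. NKT2 was 3.17-fold above NKT1 (adjusted p = 5.57e-09) and 1.79-fold above NKT17 (adjusted p = 9.43e-05). Sh2d1b1, an EAT-2 gene typical of NK cells, had 0 counts in all 18 libraries, which allows up to 3 counts in each.

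In SKG mice the same comparisons called 8 of the 9 tested genes between NKT1 and NKT2 (18.7% of all tested genes), 6 between NKT1 and NKT17 (22.8%) and 5 between NKT17 and NKT2 (18.8%). Both counts against NKT1 include Slamf7 and Cd244, whose calls follow from the low-count filter here as in WT and are a description. Ly9 kept its order, with SKG NKT1 at 277 to 385 CPM against 166 to 213 CPM in SKG NKT2 and 152 to 177 CPM in SKG NKT17. Cd84 was called between SKG NKT1 and SKG NKT2 (log2 difference -0.78 ± 0.12 SE, adjusted p = 3.71e-05), and SKG NKT17 and SKG NKT2 differed by 0.12 ± 0.12. Slamf6 in SKG NKT1 and SKG NKT17 overlapped (15.0 to 39.2 and 37.4 to 45.7 CPM), as did Cd48 (620.2 to 735 and 480.3 to 660.0 CPM). Neither was called between these groups, and Sh2d1a missed the 1.5-fold minimum there (-0.58 ± 0.14, adjusted p = 0.004). Slamf1 was called between SKG NKT17 and SKG NKT2 (0.77 ± 0.27, adjusted p = 0.0449), a call lost without SKG NKT17 replicate 1 or SKG NKT2 replicate 2. Cd2 kept the order NKT1, NKT2, NKT17 with smaller steps, 2.71-fold from NKT1 to NKT2 (adjusted p = 0.00384) and 3.31-fold from NKT2 to NKT17 (adjusted p = 0.0011).

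Divided by the length of the annotated exons, Cd48 was the most abundant receptor transcript of the chromosome 1 cluster in every group. It made up 69.6% of the summed CPM per kb of the 7 receptors in WT NKT1, 42.1% in WT NKT2 and 63.6% in WT NKT17. Slamf6 took 36.8% of the sum in WT NKT2 (32.2 to 39.5% over the libraries) but 3.08% in WT NKT1 and 10.9% in WT NKT17. In SKG its share was 24.3% in NKT2, 1.33% in NKT1 and 2.39% in NKT17. The Cd48 share in SKG NKT17 was 79.0% (74.8 to 81.4%). The sum itself was 739.8 to 846 CPM per kb in WT NKT1 and 475 to 534 CPM per kb in WT NKT17.

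**Figure D2:**
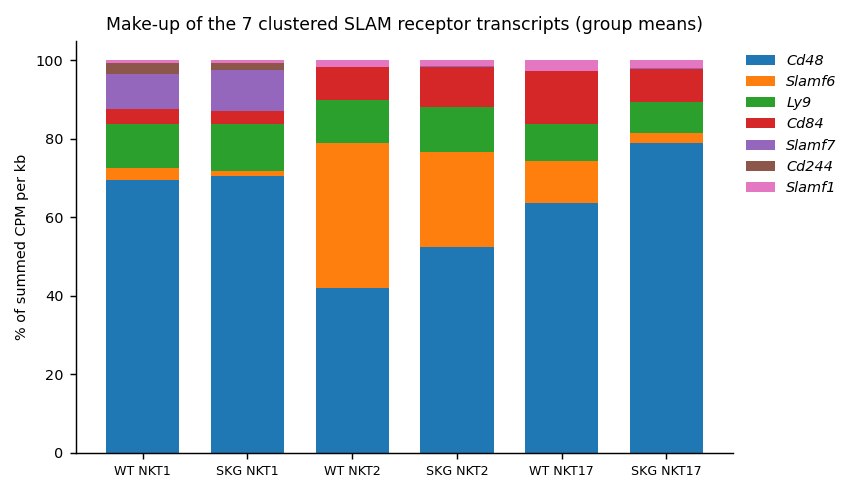
Share of each chromosome 1 receptor gene in the summed CPM per kb of exon (bars stack to 100%, group means, n = 3). Cd48 is the largest share in each of the 6 groups, Slamf6 is 36.8% in WT NKT2 and 2.39% in SKG NKT17, and Slamf7 and Cd244 are visible in NKT1 alone.

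The comparison of SKG with WT asked how each subset differed between the genotypes, and ZAP-70 signaling itself was not measured in these libraries. Slamf6 was lower and Cd2 and Cd48 higher in some SKG subsets, and no other tested gene of the family was called within a subset. In NKT1 1 of the 9 tested genes was called (Slamf6), against 3.27% of all tested genes. In NKT2 it was also 1 (Cd2), against 7.95%, and in NKT17 3 (Slamf6, Cd48 and Cd2), against 8.37%. The median log2 difference over the 9 genes was -0.13, 0.23 and 0.11 in NKT1, NKT2 and NKT17, beside medians of -0.0067, -0.0036 and 0.0045 over all tested genes. Slamf7 and Cd244, barely read outside NKT1, raise the medians in NKT2 and NKT17. Their uncalled values were 1.95 and 1.00 in NKT2 and 1.79 and 3.78 in NKT17, so these medians show no shift of the family.

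**Figure D3:**
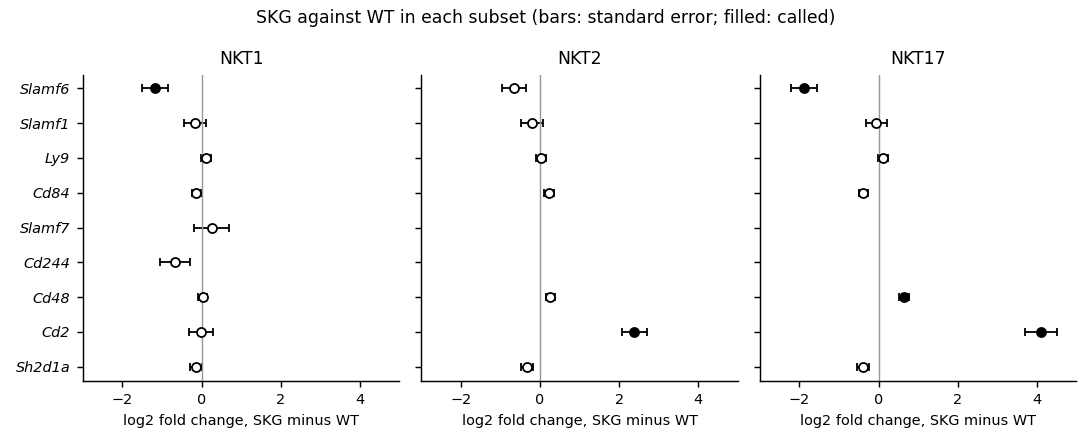
Log2 fold change of SKG against WT in each subset for the detected genes, with standard errors as bars. Filled points are called, and Slamf7 and Cd244 are shown only in NKT1, where a group mean reached 5 CPM. Cd2 stands at 2.38 in NKT2 and 4.11 in NKT17 and Slamf6 at -1.88 in NKT17.

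Cd2 showed the largest difference. SKG NKT2 libraries held 251, 267 and 294 CPM against 36.6, 42.1 and 76.1 CPM in WT NKT2. SKG NKT17 libraries held 95.3, 70.8 and 79.0 CPM against 1.76, 9.56 and 2.88 CPM in WT NKT17. SKG NKT1 libraries, at 745, 747 and 706 CPM, overlapped the WT ones. The rise was 5.22-fold in NKT2 (log2 2.38 ± 0.33 SE, adjusted p = 0.000325) and 17.3-fold in NKT17 (log2 4.11 ± 0.40, adjusted p = 1.75e-05). In all 15 alternative settings, each library left out in turn included, it stayed called, between 2.19 and 2.78 in NKT2 and between 3.76 and 5.07 in NKT17. Tested as a difference of effects, the SKG effect on Cd2 exceeded that in NKT1 by 2.40 ± 0.44 (log2, SE, adjusted p = 0.00771) in NKT2 and by 4.13 ± 0.50 (adjusted p = 0.00043) in NKT17. The effects in NKT17 and NKT2 differed by 1.73 ± 0.51, which was not called (adjusted p = 0.16).

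Because Cd2 is an NKT1-high gene, its level was read beside other genes of that subset. Cd2 reached 36.9% of the SKG NKT1 mean in SKG NKT2 and 11.2% in SKG NKT17, against 6.98% and 0.640% in the WT groups. Slamf7 stood at 0.901% and 0.654% of the SKG NKT1 mean in SKG NKT2 and SKG NKT17, Cd244 at 1.04% and 0.499%, and Tbx21, the transcription factor that defines NKT1 cells, at 3.59% and 0.285%. In WT NKT2 and WT NKT17 the same shares were 0.300% and 0.240% for Slamf7, 0.375% and 0% for Cd244, and 5.15% and 0.150% for Tbx21. The sum of 6 NKT1 markers was 211 to 304 CPM in SKG NKT2 and 299 to 424 CPM in WT NKT2, and 161 to 221 CPM in SKG NKT17 and 283 to 324 CPM in WT NKT17. Il2rb, a shared IL-2 and IL-15 receptor chain, made up most of that sum in NKT17, and fell there from 278 to 321 CPM in WT to 155 to 205 CPM in SKG (adjusted p = 0.000139). Klrd1, an NK receptor, was called higher in SKG NKT17, at 1.31 to 3.26 CPM against at most 0.412 CPM in WT NKT17 (adjusted p = 0.0594), and the mean shares of Tbx21, Cxcr3 and Xcl1 were above those in WT NKT17 with overlapping libraries. In NKT2, 2 of the 6 markers were called lower and none higher. Of other lists, markers of CD4+ CD8+ thymocytes were at 13.8 to 37.7 CPM in SKG NKT17 and 2.93 to 12.5 CPM in WT NKT17, with Rag1, Rag2, Dntt and Arpp21 at 0 in both. Cd79b, a chain of the B cell receptor complex, was at 24.6 to 40.0 CPM in SKG NKT17 and 7.55 to 10.2 CPM in WT NKT17 (log2 1.91 ± 0.40 SE, adjusted p = 0.00264), with Pax5 at 0 in both and Cd79a at most 1.22 CPM. Proliferation genes were at 44.3 to 59.5 CPM in SKG NKT17 and 88.2 to 194 CPM in WT NKT17, and the part of these genes and lists in the Cd2 difference was not tested.

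**Figure D4:**
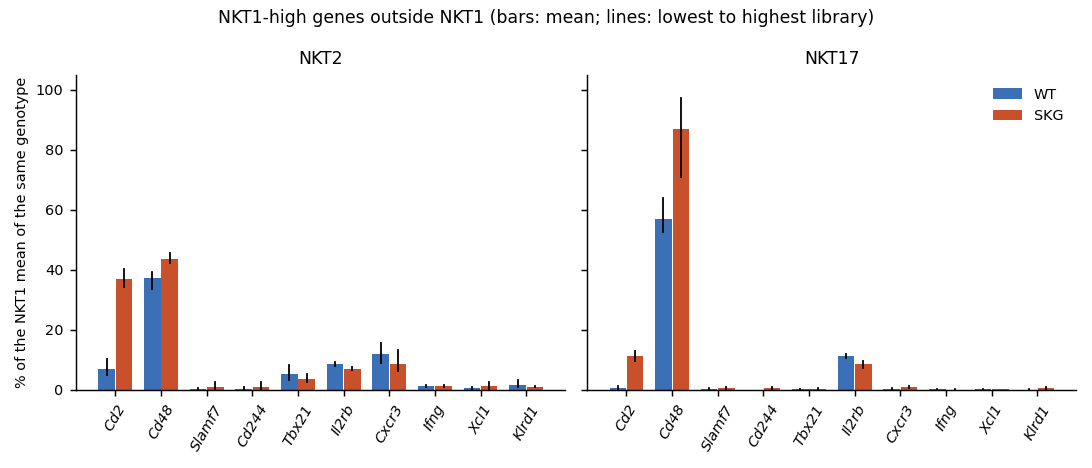
Level of 10 genes high in NKT1, as a percentage of the NKT1 mean of the same genotype (bars: mean of 3 libraries, from 0; lines: lowest to highest library). Cd2 is at 36.9% in SKG NKT2 against 6.98% in WT NKT2, while Slamf7 and Cd244 are at most 1.04% in these groups and Tbx21 at most 5.15%.

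Slamf6 was read at 37.4, 45.7 and 40.2 CPM in SKG NKT17 against 151 CPM in each WT NKT17 library. It was 3.68-fold lower (log2 -1.88 ± 0.32 SE, adjusted p = 0.00185), and stayed called in all 15 alternative settings (-2.05 to -1.82). In SKG NKT1 it was read at 36.4, 15.0 and 39.2 CPM, all below the 3 WT libraries (lowest 41.4 CPM). That difference of -1.19 ± 0.33 (log2, SE, adjusted p = 0.0804) was called in 7 of 15 alternative settings, with adjusted p from 0.0157 to 0.348. It was lost without WT NKT1 replicate 2 or 3 and without SKG NKT1 replicate 1 or 2. In SKG NKT2 it was read at 375, 256 and 345 CPM against 434 to 585 CPM in WT, again without overlap, and the difference of -0.66 ± 0.30 was not called (adjusted p = 0.232). The effects in NKT17 and NKT2 differed by -1.22 ± 0.44, which was not called (adjusted p = 0.276). Per kb, the ratio of Slamf6 to Sh2d1a was 0.878 to 1.38 in the WT NKT17 libraries and 0.328 to 0.405 in the SKG NKT17 libraries.

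Cd48 was read at 660.0, 480.3 and 626 CPM in SKG NKT17, all above the WT NKT17 libraries. The rise was 1.56-fold (log2 0.64 ± 0.12 SE, adjusted p = 0.000944), close to the 1.5-fold minimum, and fell below that minimum without WT NKT17 replicate 1 (0.58) or SKG NKT17 replicate 1 (0.55) and with the title number as a block (0.57). In NKT2 SKG libraries (285 to 308 CPM) lay above WT ones, by 0.26 ± 0.12 (adjusted p = 0.218), and in NKT1 they overlapped. The SKG effect in NKT17 exceeded that in NKT1 by 0.61 ± 0.17 (adjusted p = 0.052). Since CD2 binds CD48, their ratio per kb is given here: Cd2 per Cd48 was 0.765 in WT NKT1, 0.141 in WT NKT2 and 0.0081 in WT NKT17, and 0.743, 0.625 and 0.0952 in the same SKG subsets.

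Cd84 in SKG NKT17 (336, 332 and 310.2 CPM) lay below every WT NKT17 library, and in SKG NKT2 (289, 294 and 315 CPM) above every WT NKT2 library. The differences were -0.38 ± 0.12 (log2, SE, adjusted p = 0.0483) and 0.23 ± 0.12 (adjusted p = 0.291), both under 1.5-fold. The effects differed from each other by -0.61 ± 0.17 (adjusted p = 0.0809), a call kept in 8 of 21 alternative settings and lost with any 1 NKT2 or NKT17 library left out except WT NKT17 replicate 2. Sh2d1a in SKG NKT17 (107 to 119 CPM) overlapped WT only in WT replicate 3, and the difference of -0.39 ± 0.14 (adjusted p = 0.0952) was under 1.5-fold. In NKT2 it was -0.33 ± 0.14 (adjusted p = 0.175). Slamf1 and Ly9 were not called in any subset, with overlap of SKG and WT libraries in all of them. Cd244 in SKG NKT1 was 0.67 ± 0.37 lower on the log2 scale, which was not called (adjusted p = 0.46), and Slamf7 0.26 ± 0.44 higher (adjusted p = 0.884). Of the differences of effect between subsets, 1 of 9 tested genes was called for NKT2 against NKT1 (Cd2, against 3.87% of all tested genes), 2 for NKT17 against NKT1 (Cd48 and Cd2, against 4.17%) and 1 for NKT17 against NKT2 (Cd84, against 2.19%).

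Among the 9 detected genes, Slamf6 and Sh2d1a varied together over the 18 libraries (Pearson r of log2 CPM 0.909), and Cd48 ran against both (-0.924 with Slamf6, -0.928 with Sh2d1a). Slamf7, Cd244 and Ly9 formed a second set (0.933 to 0.971), and Slamf1 and Cd84 a further pair (0.858). The 18 libraries fall into 6 groups and share them, so these values mostly follow the subset means and are a description.

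For the 3 genes with the widest range of group means, the 3 most similar other genes were sought over the 18 libraries, among tested genes averaging 50 counts or more. Closest to Slamf7 were Ccl5, a chemokine (r = 0.983, Spearman 0.891), Kcnj8 (0.965, Spearman 0.771) and Ly6c2 (0.963, Spearman 0.622). Closest to Cd244 were Il12rb2, an IL-12 receptor chain (0.985, Spearman 0.91), Ifitm1 (0.984, Spearman 0.787) and Kcnj8 (0.981, Spearman 0.77). Closest to Cd2 were Ms4a6b (0.972, Spearman 0.946), Ubash3a, which encodes a regulator of T cell receptor signaling (0.971, Spearman 0.891), and Gm4759 (0.968, Spearman 0.934). Like Cd2, Ms4a6b and Ubash3a stood higher in SKG NKT2 and SKG NKT17 than in WT. Ms4a6b was at 277 to 313 CPM in SKG NKT2 and 95.5 to 143 CPM in WT NKT2, and at 125 to 141 CPM in SKG NKT17 and 31.2 to 56.3 CPM in WT NKT17. Ubash3a was at 10.6 to 15.5 CPM in SKG NKT17 and 0.39 to 2.33 CPM in WT NKT17. These libraries overlap in no case, and the likeness itself used the same values.

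Signaling partners and other genes around the family, a list of 31 of which 28 were tested, were read with the same test. In SKG against WT, 1 was called in NKT1 (Lyn), 3 in NKT2 (Lyn, Myb and Plcg2) and 4 in NKT17 (Lyn, Myb, Ptpn6 and Pag1), beside 3.27%, 7.95% and 8.37% of all tested genes. Plcg2 had 0 counts in all WT NKT2 libraries and 0, 7 and 16 in SKG NKT2, so the groups overlapped. FYN and LCK, the kinases next to SAP and the T cell receptor, were not among them. Fyn was at 130 to 223 CPM and Lck at 1693 to 2500 CPM as group means, and neither was called in any of the 12 comparisons. Lyn, a kinase of the same family best known from B and myeloid cells, was lower in SKG in each subset. It was read at 25.6, 29.0 and 26.4 CPM in WT NKT1 against 6.13, 3.12 and 3.64 CPM in SKG NKT1, by -2.64 ± 0.52 (log2, SE, adjusted p = 0.00462). In NKT17 it fell from 7.30 to 12.9 CPM in WT to at most 1.05 CPM in SKG (-4.78 ± 0.70, adjusted p = 6.07e-05).

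Myb, a transcription factor needed for NKT precursors, was read at 85.1, 23.8 and 45.7 CPM in WT NKT17 and at 0.425, 2.09 and 2.44 CPM in SKG NKT17 (-5.00 ± 0.64, adjusted p = 6.39e-05). In NKT2 it went from 53.5 to 87.3 CPM in WT to 10.3 to 11.9 CPM in SKG (-2.55 ± 0.52, adjusted p = 0.00451). Ptpn6, the gene of the phosphatase SHP-1 that SLAM receptors can recruit when SAP is absent, was lower in SKG NKT17 (418 to 581 CPM against 713 to 884 CPM, -0.64 ± 0.16, adjusted p = 0.0175). Pag1, a membrane adaptor that binds the kinase CSK, was higher (34.3 to 39.8 CPM against a WT mean of 21.9 CPM, 0.74 ± 0.20, adjusted p = 0.0212).

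Between the WT subsets, 13 of the 28 tested genes were called for NKT1 against NKT2, 14 for NKT1 against NKT17 and 8 for NKT17 against NKT2, beside 27.5%, 24.7% and 20.0% of all tested genes. In the SKG subsets the counts were 12, 13 and 8, beside 18.7%, 22.8% and 18.8%. In WT NKT1, 9 of the called genes were higher and 4 lower than in NKT2, and 11 higher and 3 lower than in NKT17. In WT NKT17, 3 were higher and 5 lower than in NKT2. The genes named next are only a part of these. Lyn (2.62 ± 0.51 log2, SE) and Fgr (1.88 ± 0.56), kinases of one family, were higher in WT NKT1 than in WT NKT2, while Myb (-6.31 ± 0.69), Zbtb16 (-2.41 ± 0.21), the factor PLZF that directs NKT cells, and Egr2 (-0.94 ± 0.34) were lower. Zbtb16 was also lower in NKT1 than in NKT17 (-2.15 ± 0.20), with Cd2ap, whose product binds the tail of CD2 (-0.84 ± 0.24). Prkcq, which makes the kinase PKC-theta, was lower in WT NKT17 than in WT NKT2 (-0.88 ± 0.12), as was Rasa1, a regulator of RAS (-1.36 ± 0.25, and -1.83 ± 0.26 between the SKG subsets). Adjusted p was at most 0.0425 for each of these.

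The paralogs Slamf8, Slamf9 and Sh2d1b2 did not pass the low-count filter. Around the cluster, 39 other counted genes lie within 500 kb on either side, and 25 of them were tested. In SKG against WT, 1 of these was called in each subset, beside 3.27%, 7.95% and 8.37% of all tested genes: Fcer1g in NKT1 (-1.04 ± 0.31, adjusted p = 0.099), Ppox in NKT2 (0.64 ± 0.22, adjusted p = 0.082) and Pvrl4 in NKT17, at 2.78 to 5.90 CPM in WT and at most 3 counts in each SKG library. Fcer1g, a signaling chain of NK receptors, was also an NKT1 gene, at 272 to 523 CPM in WT NKT1 and at most 2.91 CPM in the other WT subsets.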

How the data were processed

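RNA from sorted NKT cells was made into poly-A cDNA by a Smart-seq2-like protocol, tagmented with Tn5 and sequenced as single-end reads without molecular identifiers. The authors deposited raw read counts per gene in 1 table, made with TopHat and HTSeq. Per the labels the tools were TopHat 1.4.1, Bowtie 1.0.0 and HTSeq 0.7.1 with builds mm10 and hg19 listed, whereas the study's methods name mm9. The strand setting is not given in the sources used here. Positions here are those of GENCODE M1 on NCBIM37 (mm9), and exon lengths come from the same annotation. The 2 columns that match no listed sample were not used.

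Depth was 4391029 to 8895917 counts a library, and counts in replicates differed by 5.71 to 26.0 chi-square units per degree of freedom, so none was a repeated library. Of 15582 genes with a count, 11118 passed filterByExpr. All 18 libraries were fitted in 1 model of 6 groups with edgeR 4.0.16 (R 4.3.3, robust quasi-likelihood F test, two-sided, TMM factors 0.928 to 1.07, 12 residual degrees of freedom) with Benjamini-Hochberg adjustment over the 11118 genes. A call needed an adjusted p under 0.1 and 1.5-fold, the thresholds of the study. Standard errors were derived from each log2 value and its F statistic. DESeq2 1.42.0 was an alternative. The steps were tested on simulated data. Figures were drawn with matplotlib.

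The 10 genes, the list of 31 partners and the marker lists were chosen with earlier results of these data known. Named beyond the 10 genes are the 3 most similar genes of the 3 with the widest range of group means, called partners and called genes within 500 kb of the cluster. Partners called between subsets were named up to 3 a direction and comparison, averaging 50 counts or more where higher. Those called in SKG against WT were named at any level, Plcg2 with its few counts among them. Fyn, Lck and the paralogs were added as background. The summed level of 1 marker list is not reported here. Uncalled differences of the 10 genes are printed mostly where they were at least 0.25 (log2) and a group reached 5 CPM. The samples are labelled as separate, from repeated experiments, so p-values measure the spread between them. Numbers in the sample titles were checked as pairs: deviations of same-numbered libraries correlated above 0.1 in all 3 pairs only for NKT17 against NKT2 in WT (0.219 to 0.351), where the block changed no call of the 10 genes. In the other comparisons of subsets, 1 or 2 of 3 pairs passed 0.1 (highest 0.262). The block added a call of Slamf1 for NKT1 against NKT2 in WT, and the main fit does not pair the libraries. Alternatives covered scaling, filters, thresholds, the samples fitted, the block and each library left out.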

Additional observations from a re-analysis of the deposited data

Results flagged for a closer look

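A difference of the SKG effect between subsets was called for 1 of the 9 tested genes in NKT2 against NKT1, beside 3.87% of all tested genes. It was called for 2 in NKT17 against NKT1 (4.17%) and for 1 in NKT17 against NKT2 (2.19%). Each call is from a test of the difference itself in the fit across all genes, and only those of Cd2 held in all alternatives. For Cd2 the effect was larger in NKT2 than in NKT1 by 2.40 ± 0.44 (log2, SE, adjusted p = 0.00771). It was larger in NKT17 than in NKT1 by 4.13 ± 0.50 (adjusted p = 0.00043). All 3 SKG libraries lay above all 3 WT libraries in NKT2 and in NKT17. Both differences of effect held in all 21 alternatives. For Cd48 the effect in NKT17 exceeded that in NKT1 by 0.61 ± 0.17 (adjusted p = 0.052), a call kept in 11 of 21 alternatives (0.50 to 0.72, adjusted p 0.0128 to 0.176). It was lost without WT NKT1 replicate 1 or 3, WT NKT17 replicate 1 or 3, SKG NKT1 replicate 1 or 2, or SKG NKT17 replicate 1 or 3, at an adjusted p under 0.05, and with only the libraries compared. For Cd84 the effects in NKT17 and NKT2 differed by -0.61 ± 0.17 (adjusted p = 0.0809), a call kept in 8 of 21 alternatives (-0.65 to -0.57, adjusted p 0.0202 to 0.202), with SKG libraries all lower in NKT17 and all higher in NKT2. It was lost with any 1 NKT2 or NKT17 library left out except WT NKT17 replicate 2, at an adjusted p under 0.05, and with upper-quartile scaling.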

How the results depend on the processing

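Of 1774 values of the 108 log2 differences of the 9 tested genes under the alternatives, 1661 kept their direction and side of the thresholds, 39 lost a call, 26 gained one and 48 changed sign. The sign changes had an uncalled main value each time (smallest adjusted p 0.293), and 1 of them gave a call. In SKG against WT in NKT1 the count of 1 (Slamf6) became 0 at an adjusted p under 0.05, with upper-quartile scaling, without the low-count filter, and with only the libraries compared, where all genes called fell from 364 to 207. With libraries left out in turn it was 0 to 1. It was lost without WT NKT1 replicate 2 or 3 or SKG NKT1 replicate 1 or 2 (adjusted p 0.146 to 0.229). In NKT2 it rose to 2 with only the libraries compared (Slamf6 joined Cd2) and was 1 to 2 with a library left out. In NKT17 it was 5 with no fold minimum, where all genes called rose from 931 to 1398, and 2 to 3 with a library left out. For the effect in NKT17 against NKT1 it was 1 at an adjusted p under 0.05 and with only the libraries compared, and 1 to 2 with a library left out (all genes 464, and 278 at the stricter threshold). For NKT17 against NKT2 it was 0 at an adjusted p under 0.05 (all genes 155 in place of 244) and with upper-quartile scaling, 2 with DESeq2 (Cd84 and Cd2) and with only the libraries compared (Slamf6 and Cd84), and 0 to 2 with a library left out. The causes were not tested. With the replicate block by title number, SKG against WT in NKT17 called 2 genes, with Cd48 under the 1.5-fold minimum at 0.57 (log2), and NKT1 against NKT2 in WT 8, with Slamf1. Of the 4 title numbers, 2 are shared by SKG and WT samples in each subset, and the others occur in a single genotype. Deviations of SKG and WT libraries with a shared number correlated at -0.151 to 0.09. No other call of the 10 genes changed under the block. Upper-quartile scaling moved the median of all genes by -0.102 for NKT1 against NKT2 in WT. On raw library totals the level of Cd2 in WT NKT1 was 694 CPM. Depth limits statements on Slamf7 and Cd244 outside NKT1 and on Sh2d1b1.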
